A study of Rattus norvegicus with 24 samples.

Results

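Ovariectomised rats given vehicle were compared with SHAM rats given vehicle, which asks how hippocampal RNA levels differ once the ovaries are gone. The samples were chosen by their labels as the 7 OVX and the 7 SHAM libraries, 14 of the 24 samples of the series. All 14 are RNA sequencing libraries of frozen hippocampus from female rats (Rattus norvegicus) that entered the study at 6 months of age. OVX rats had their ovaries removed at that age and then received vehicle for 7 weeks, and SHAM rats kept their ovaries and also received vehicle for 7 weeks. Strain, what the SHAM operation involved, the time from surgery to tissue collection, uterine weight and estrous stage are not in the labels, so the ovarian hormone state of the SHAM rats at collection is unknown here. The labels do not say whether replicates are separate animals, so p-values measure the spread between these libraries.

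The ovaries are the main source of circulating estradiol and progesterone. Estradiol acts through the nuclear receptors encoded by Esr1 and Esr2, and in the hippocampus it is known for effects on dendritic spines, on NMDA receptor-dependent plasticity, on mitochondrial energy supply and on microglial activity. The hippocampus is built from granule cells of the dentate gyrus, pyramidal cells of CA1, CA2 and CA3, several classes of GABA interneuron and glia. It lies beside the choroid plexus, which makes cerebrospinal fluid, and beside the thalamus, so dissections can carry either along. In a bulk sample, fewer cells of a type and less RNA per cell cannot be told apart.

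Values are the deposited normalised counts. A change is OVX minus SHAM on the log2(value + 1) scale, which understates the change of low genes. Features with a mean of at least 10 over the 14 libraries were tested with limma, 16096 in all. Column totals ran from 35.4 to 37.4 M (mega). The reads estimated from the commonest small value of each library ran from 26.6 M (SHAM 4) to 39.9 M (SHAM 5). Correlations between libraries over the tested features lay between 0.973 and 0.991.

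The libraries differed in tissue carried over from outside the hippocampus. Ttr, the thyroxine carrier made in bulk by choroid plexus epithelium, was at 1982 normalised counts in OVX 1, 73531 in OVX 2, 661 in OVX 3, 10032 in OVX 4, 565 in OVX 5, 41398 in OVX 6 and 30370.3 in OVX 7. In the SHAM libraries Ttr was at 16597 in SHAM 1, 384 in SHAM 2, 23186 in SHAM 3, 1028 in SHAM 4, 551 in SHAM 5, 1068 in SHAM 6 and 136652 in SHAM 7. Both groups thus held low and high libraries, with 4 OVX and 3 SHAM libraries above 10000 and 3 OVX and 4 SHAM libraries below it. The difference in means was 0.83 on the log2 scale, with an exact two-sided permutation p = 0.616 over all assignments of the 14 libraries. It ranged from 0.26 without OVX 2 to 1.69 without SHAM 7. Of the 20 tested genes of the choroid plexus list, 18 had a positive change (median 0.36). That median was 0.00020 without OVX 2, with 10 of 20 higher, and 1.01 without SHAM 7. Their summed level ran from 9941 to 115591 in OVX and from 9122 to 214244 in SHAM. Kl, the klotho gene, and Folr1, a folate receptor gene, followed Ttr, with Kl highest in SHAM 7 (5474) and OVX 2 (2615) and Folr1 at 1449 and 824 there.

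Thalamic genes set 2 libraries apart, one of them also high in Ttr. Prkcd, a protein kinase C gene of thalamic relay neurons, stood at 4671 in SHAM 5 and 3914 in OVX 2, against 503 to 1584 in the other 12 libraries. The transcription factor gene Tcf7l2 was at 3357 in SHAM 5 and 1579 in OVX 2, and the related gene Lef1 at 987 and 598. Hypothalamic neuropeptide genes were high in OVX 2. There Pmch, the gene of melanin-concentrating hormone, was at 5944, the oxytocin gene Oxt at 4955 and the orexin gene Hcrt at 711, against at most 110.1, 377 and 89.6 elsewhere. SHAM 5, the highest in thalamic genes, was lowest of the SHAM libraries in the neuronal gene Rbfox3 (4721 against 5975 to 6401 in the other 6). The hippocampal genes Slc17a7, the vesicular glutamate transporter of pyramidal and granule cells, and Prox1, a granule cell transcription factor, were present in all 14 libraries, at no less than 47185 and 2035.

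**Figure D1:**
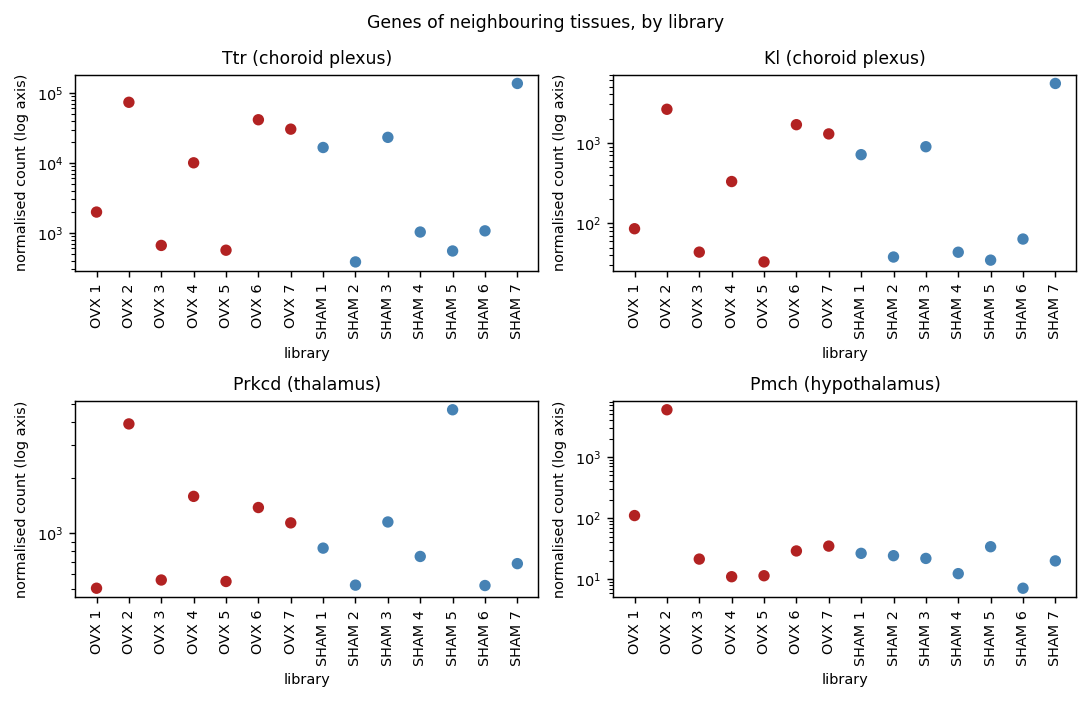
Normalised counts (log axis) of Ttr, Kl, Prkcd and Pmch in each of the 14 libraries, OVX in red and SHAM in blue. Choroid plexus genes are highest in SHAM 7 and OVX 2, Prkcd in SHAM 5 and OVX 2, and Pmch in OVX 2 at 5944.

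Gene by gene, limma called 0 of 16096 features at an adjusted p under 0.05 (0%), and the smallest adjusted p was 0.907. At an unadjusted p under 0.05 there were 849 features (5.27%), of which 354 were higher in OVX (2.2%) and 495 lower (3.08%). A positive change was found in 8333 features (51.8%) and a negative one in 7763 (48.2%), with a median of 0.0044 and quartiles of -0.061 and 0.063. These shares are set beside the counts of gene lists below. Members of a list can move together by library and are not replicates, so such counts are no test of the list. Under the 30 alternative settings 0 features were called, with smallest adjusted p between 0.144 and 0.996. No gene named below passed, and directions are therefore given as values. For some genes all OVX libraries are said to lie above, or all under, the SHAM median. How many of all features do so was not counted, and many named genes were picked by their p. Such statements describe a gene's values and are not evidence of a difference.

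In 3 features (0.0186%) every OVX value lay above every SHAM value, and in 1 (0.00621%) every OVX value lay below. Among 16096 features, separations as few as these can arise by chance. Skap2, an adaptor protein gene of integrin signalling in myeloid cells, ran from 400.5 to 445 in OVX (median 423) and from 326 to 379 in SHAM (median 358), a change of 0.22 (SE 0.053, unadjusted p = 0.000756). Nenf, which encodes a secreted heme-binding neurotrophic protein, ran from 716 to 1000.5 in OVX (median 814) and from 611 to 714 in SHAM (median 661). Its change of 0.28 (SE 0.071) stayed between 0.23 and 0.31 when single libraries were left out. Foxred2, an oxidoreductase gene of protein degradation at the endoplasmic reticulum, lay between 657 and 698 in OVX (median 683) and between 564 and 655 in SHAM (median 614), with a narrower spread in OVX and a change of 0.15 (SE 0.046). Il18r1, the ligand-binding chain of the interleukin 18 receptor, was the gene with OVX below SHAM throughout. It ran from 120.3 to 142 in OVX (median 134) and from 146 to 171 in SHAM (median 155), a change of -0.23 (SE 0.071, unadjusted p = 0.00554). All 4 kept their sign in every alternative. Leaving out libraries could not turn it, because these genes were picked for groups that do not overlap. The 7 libraries of Ttr up to 10000 gave 0.15, 0.33, 0.092 and -0.17.

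Features with a symbol and a mean of at least 50 were ranked by p. The 12 with the smallest p among those higher in OVX held immune, endoplasmic reticulum and developmental genes. Whether such roles were more common there than among all features was not tested. Grxcr1, known from the hair cells of the inner ear, had the smallest p among these ranked features. It ran from 95.6 to 162 in OVX (median 128) and from 65.5 to 120.2 in SHAM (median 77.2), a change of 0.66 (SE 0.14). The groups overlapped in a few libraries only, since the lowest OVX value lay above the SHAM median. Nnat, an imprinted gene of a small membrane protein of the endoplasmic reticulum, was among the more abundant, between 12256 and 18171 in OVX (median 15607) and between 9672 and 14399 in SHAM (median 11933), with a change of 0.37 (SE 0.10). Tm7sf2, a sterol reductase gene of cholesterol synthesis, measured 829 ± 66.3 in OVX and 724 ± 25.2 in SHAM (mean ± SD, n = 7 each here and below), and all 7 OVX libraries exceeded the SHAM median. Rcn2, a calcium-binding protein gene of the secretory pathway, measured 4378 ± 152 in OVX and 4009.6 ± 181 in SHAM. Hes6, a gene of neuronal differentiation, measured 737 ± 62.2 in OVX and 632 ± 48.5 in SHAM, and Rwdd3, which promotes SUMO conjugation, 255 ± 20.9 against 210.5 ± 22.1. Tmem176a, a membrane protein gene of myeloid and dendritic cells, was at 1375 ± 104 in OVX and 1158 ± 116 in SHAM. The class I gene RT1-T24-4 was at 1008 ± 139.5 in OVX and 795 ± 74.5 in SHAM. It belongs to a family of near-identical copies, so its counts are uncertain. RGD1312005, a gene without an established role, measured 2419 ± 187 in OVX and 2098 ± 166 in SHAM, and the sensor gene Tlr7 is described with the immune genes.

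Among the 12 lower features with the smallest p in the same ranking, most are known from neuronal membranes, the cytoskeleton or RNA regulation. How common such roles are among all features was not tested. Slc4a8 encodes a sodium-driven chloride-bicarbonate exchanger of presynaptic terminals that removes acid and supports glutamate release. It ran from 1373 to 1789 in OVX (median 1547) and from 1666 to 2073 in SHAM (median 1911), a change of -0.28 (SE 0.066, unadjusted p = 0.00068), and no OVX library reached the SHAM median. Kcnj6 encodes GIRK2, the potassium channel subunit through which GABA-B and other Gi-coupled receptors hold neurons silent. It ran from 1353 to 1912 in OVX (median 1610.2) and from 1680.0 to 2335 in SHAM (median 2075), a change of -0.33 (SE 0.082), again with every OVX library under the SHAM median. Atp2b2, a plasma membrane calcium pump gene, measured 15853 ± 989 in OVX and 17743 ± 919 in SHAM. Pde10a, a cyclic nucleotide phosphodiesterase gene that is most abundant in striatum, measured 1512 ± 129.7 in OVX and 1766 ± 158 in SHAM, and Trio, a guanine nucleotide exchange factor gene of axon and spine growth, 8395 ± 474 against 9346 ± 457. Csmd2, a large complement-domain membrane protein gene of neurons, was at 2316 ± 295 in OVX and 2742 ± 204 in SHAM. Fn1, fibronectin, was at 1943 ± 149 in OVX and 2328 ± 272 in SHAM. Ago1, of the microRNA silencing complex, measured 1975 ± 103 in OVX and 2248 ± 154 in SHAM, and Ubr2, a ubiquitin ligase gene, 4717 ± 349 against 5241 ± 162. Dopey2 of membrane trafficking measured 4253 ± 276 in OVX and 4717 ± 147 in SHAM, Wipf2 of actin assembly 1375 ± 96.4 against 1565 ± 71.2 and Mzt1 of the microtubule-nucleating complex 237 ± 26.7 against 293 ± 28.4. Changes of these 12 lay between -0.33 and -0.15. The signs of all 24 genes were the same under the alternatives run. These genes were picked by p in the same libraries, so a stable sign largely follows from that choice and is no separate support.

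**Figure D2:**
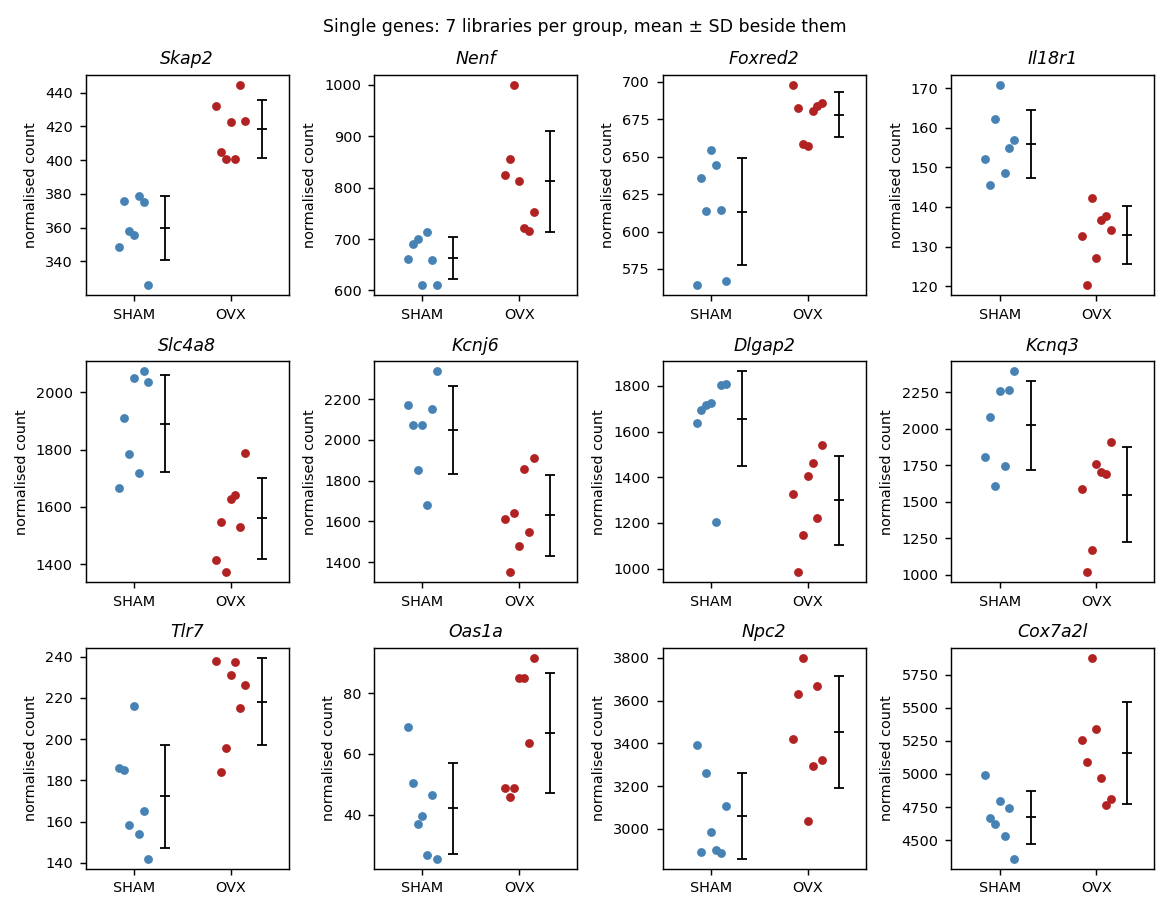
Normalised counts of 12 genes in the 7 SHAM (blue) and 7 OVX (red) libraries, with the mean ± SD beside each group. Skap2, Nenf, Foxred2 and Il18r1 do not overlap between groups, and the other 8 overlap in some libraries.

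Hormone receptor genes showed no shared direction. Of 31 tested genes of sex steroid receptors and synthesis, 14 had a positive change (median -0.025), against 51.8% of all features, and the median was 0.0071 without OVX 3. Esr1, estrogen receptor alpha, ran from 58.0 to 161 in OVX (median 96.8) and from 57.7 to 104 in SHAM (median 95.2), with wide overlap and a change of 0.17 (SE 0.20). Esr2, estrogen receptor beta, was a low gene that ran from 10.6 to 32.7 in OVX (median 18.9) and from 16.8 to 42.7 in SHAM (median 29.5), a change of -0.38 (SE 0.26), and 1 of 7 OVX libraries exceeded the SHAM median. Pgr, the progesterone receptor gene that estradiol induces in many brain regions, ran from 315 to 505 in OVX (median 381) and from 375 to 548 in SHAM (median 425), a change of -0.16 (SE 0.12). Ncor1, a corepressor gene of nuclear receptors, was under the SHAM median in all 7 OVX libraries, with a change of -0.089 (SE 0.042).

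Genes that answer to glucocorticoids had no shared direction either. Among them 16 of 26 were higher, and the median of 0.072 came to -0.00040 without SHAM 6. The glucocorticoid receptor gene Nr3c1 was at 3351 ± 506 in OVX and 3433 ± 276 in SHAM, and the cochaperone gene Fkbp5, a standard read-out of that receptor, at 2822 ± 589 against 2905 ± 339. Sgk1, a serum- and glucocorticoid-induced kinase gene, ran from 3195 to 5497 in OVX (median 4285) and from 2553 to 4913 in SHAM (median 3112) and lay above the SHAM median in all 7 OVX libraries (change 0.24, SE 0.16). Pdk4, a kinase gene that shuts off pyruvate dehydrogenase in fasting and under glucocorticoids, had the largest change of the list, 0.46 (SE 0.20), and ran from 121 to 273 in OVX (median 163) and from 73.4 to 177 in SHAM (median 128). The mineralocorticoid receptor gene Nr3c2, which is rich in hippocampal neurons, lay under the SHAM median in all 7 OVX libraries at 2256 ± 325 in OVX and 2669.7 ± 495 in SHAM (change -0.23, SE 0.12).

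Of 37 growth factor and thyroid hormone genes, 25 had a negative change (median -0.047), and the median was -0.027 without OVX 3, -0.030 without SHAM 3 and -0.072 without SHAM 4. Egf, epidermal growth factor, ran from 85.5 to 137 in OVX (median 107) and from 109 to 167 in SHAM (median 142), with every OVX library under the SHAM median (change -0.30, SE 0.12). The receptor gene Igf1r measured 732 ± 86.4 in OVX and 827 ± 86.3 in SHAM, and its ligand gene Igf1 144 ± 16.7 against 134 ± 22.8, so the pair had opposite signs. Bdnf, the brain-derived neurotrophic factor gene, measured 1074 ± 185 in OVX and 1158 ± 107 in SHAM, a difference within the spread of either group, as did the vascular growth factor gene Vegfa at 4758 ± 463 in OVX and 5061 ± 559 in SHAM.

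Most marker genes of dentate granule cells and of CA3 were lower in OVX, and other neuron lists were mixed. The 9 tested CA3 pyramidal genes all had negative changes (median -0.092), as did 10 of 12 granule cell genes (median -0.12) and 9 of 12 general excitatory genes (median -0.092, -0.027 without OVX 2 and -0.14 without SHAM 5). CA1 genes were lower in 6 of 9 (median -0.023) and CA2 genes in 5 of 9. The CA1 median ran from -0.13 without SHAM 5 to 0.049 without SHAM 4 and the CA2 median from -0.051 without SHAM 6 to 0.062 without SHAM 1, so neither had a stable sign. None of the CA3 genes had an unadjusted p under 0.05, against 5.27% of all features. In the 7 libraries with Ttr up to 10000 the CA3 and granule cell medians turned positive, 0.082 with 5 of 9 genes higher for CA3 and 0.079 with 7 of 12 higher for granule cells. SHAM 7, the library with the most Ttr, had the highest score of both lists, 0.27 and 0.47 above the mean of the 14 libraries. A score is a library's mean log2 level over the list. The libraries with Ttr up to 10000 leave out OVX 2 but keep SHAM 5, the library highest in thalamic genes. This subset is therefore low in choroid plexus genes but not free of thalamic carry-over. Its thalamus and habenula median was -0.45, with 0 genes higher in OVX.

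Among single neuronal genes, Map2, the microtubule-associated protein gene of dendrites, ran from 43413 to 70678 in OVX (median 62159.7) and from 60213 to 88682 in SHAM (median 74004). Every OVX library lay under the SHAM median, a change of -0.33 (SE 0.11, unadjusted p = 0.00962), and it remained negative in the libraries with little Ttr (-0.45). Camk2a, the calcium- and calmodulin-dependent kinase gene of excitatory synapses, ran from 48612 to 68784 in OVX (median 55342) and from 49063 to 80034 in SHAM (median 67535) (change -0.25, SE 0.11). Granule cell genes included Dgkh, a diacylglycerol kinase gene, with 136 to 945 in OVX against 647 to 1291 in SHAM, and Pdzd2, a PDZ-domain gene, at 2038 ± 243 in OVX and 2333 ± 295 in SHAM. Prox1 measured 2738 ± 449 in OVX and 3088 ± 624 in SHAM, Rbfox3 5573 ± 637 against 5905 ± 540.4 and Slc17a7 63646 ± 10704 against 66982 ± 7100.2, each within the spread of the groups. Rgs14, a signalling regulator of CA2, measured 4270.2 ± 824 in OVX and 5070.2 ± 944 in SHAM, and the CA3 genes Cpne4, a calcium-binding copine gene, and Grik4, a kainate receptor subunit gene, measured 7332 ± 1358 against 8025 ± 497 and 3183 ± 544 against 3390.0 ± 318.

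Interneuron lists showed no shared direction. Parvalbumin genes were higher in 4 of 9, somatostatin genes in 4 of 10, Vip and Cck genes in 7 of 12 and neurogliaform genes in 7 of 10. Without single libraries these counts ran from 2 to 6, from 3 to 5, from 6 to 9 and from 5 to 9. Pvalb, the calcium buffer gene of fast-spiking cells, measured 1321 ± 161 in OVX and 1361 ± 351 in SHAM, the neuropeptide gene Sst 2344 ± 349 against 2048 ± 294 and Vip 446 ± 52.9 against 403 ± 73.6. Adarb2, which marks interneurons of caudal origin, ran from 299.9 to 409 in OVX (median 376) and from 346 to 501 in SHAM (median 413) with all OVX libraries under the SHAM median (change -0.22, SE 0.089). Cxcl14, a chemokine gene of such interneurons, went the other way, between 3250.3 and 3864 in OVX (median 3603) and between 2619 and 3736 in SHAM (median 3151) (change 0.15, SE 0.074). Genes of adult neurogenesis were split, 9 higher of 17, with the immature neuron gene Dcx at 1413 ± 189 in OVX and 1313 ± 86.1 in SHAM and the proliferation gene Mki67 at 427 ± 62.1 in OVX and 484 ± 67.2 in SHAM.

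Astrocyte lists stayed near the background. Homeostatic astrocyte genes were higher in 12 of 20 and reactive ones in 11 of 18, near the 51.8% of all features. The water channel gene Aqp4 measured 18474 ± 2174 in OVX and 17813 ± 1303 in SHAM and the filament gene Gfap 41327 ± 5713 against 39914 ± 3805. Slc1a2, the main astrocytic glutamate transporter gene, was under the SHAM median in all 7 OVX libraries, but its values spread widely, from 7775 to 16044 in OVX (median 14573) and from 8416 to 18143 in SHAM (median 16825) (change -0.21, SE 0.19). Cd109, an inhibitor gene of TGF-beta signalling in the reactive list, measured 142 ± 10.4 in OVX and 159.5 ± 9.43 in SHAM. Genes of newly formed oligodendrocytes were lower in 13 of 15 (median -0.083), and their median was -0.032 without OVX 3, -0.047 without SHAM 3 and -0.051 without OVX 1. Bcas1, a marker of cells that have begun to myelinate, measured 13093 ± 2792 in OVX and 14807 ± 2461 in SHAM. Tnr, tenascin R of the matrix around axons, ran from 2728 to 4310.0 in OVX (median 3472) and from 3492 to 4653 in SHAM (median 4216) (change -0.30, SE 0.099, unadjusted p = 0.00847). Nfasc, which assembles nodes of Ranvier and axon initial segments, ran from 13462 to 16636 in OVX (median 14435) and from 15808 to 17515 in SHAM (median 16151) (change -0.15, SE 0.050), and 1 OVX library exceeded the SHAM median. The myelin protein genes were lower in 15 of 23 (median -0.032). Without OVX 6 the median was -0.11 (1 of 23 higher), and it turned positive without SHAM 5 (0.024, 15 of 23 higher), OVX 1 (0.015) or SHAM 7 (0.0044). Mbp, myelin basic protein, measured 188265 ± 41748 in OVX and 196341 ± 38142 in SHAM.

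Endothelial genes were balanced, 13 of 22 higher (10 to 14 without single libraries), with the tight junction gene Cldn5 at 2632 ± 208 in OVX and 2520.2 ± 132 in SHAM. Vwf, the clotting factor gene of larger vessels, ran from 2074 to 2907 in OVX (median 2239.8) and from 2526 to 3187 in SHAM (median 2774), a change of -0.24 (SE 0.077, unadjusted p = 0.00671). Itm2a, a membrane protein gene of brain capillaries, had the opposite sign, 1717 ± 177 against 1539 ± 136 (OVX against SHAM). Mural cell genes were lower in 11 of 18 (median -0.047, -0.0054 without SHAM 6 and -0.086 without SHAM 2), with the pericyte receptor gene Pdgfrb at 1330.1 ± 155 in OVX and 1443 ± 252 in SHAM, whereas Des, desmin, measured 192 ± 37.9 in OVX and 158 ± 24.7 in SHAM. Fibroblast genes of vessels and meninges were higher in 11 of 14. Their median of 0.14 ran from -0.030 without OVX 7 to 0.35 without SHAM 7, libraries that are also high in Ttr, and it was -0.023 without SHAM 4. Thalamic genes were higher in 14 of 19, and their median of 0.17 ran from -0.045 without OVX 2 to 0.37 without SHAM 5.

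**Figure D3:**
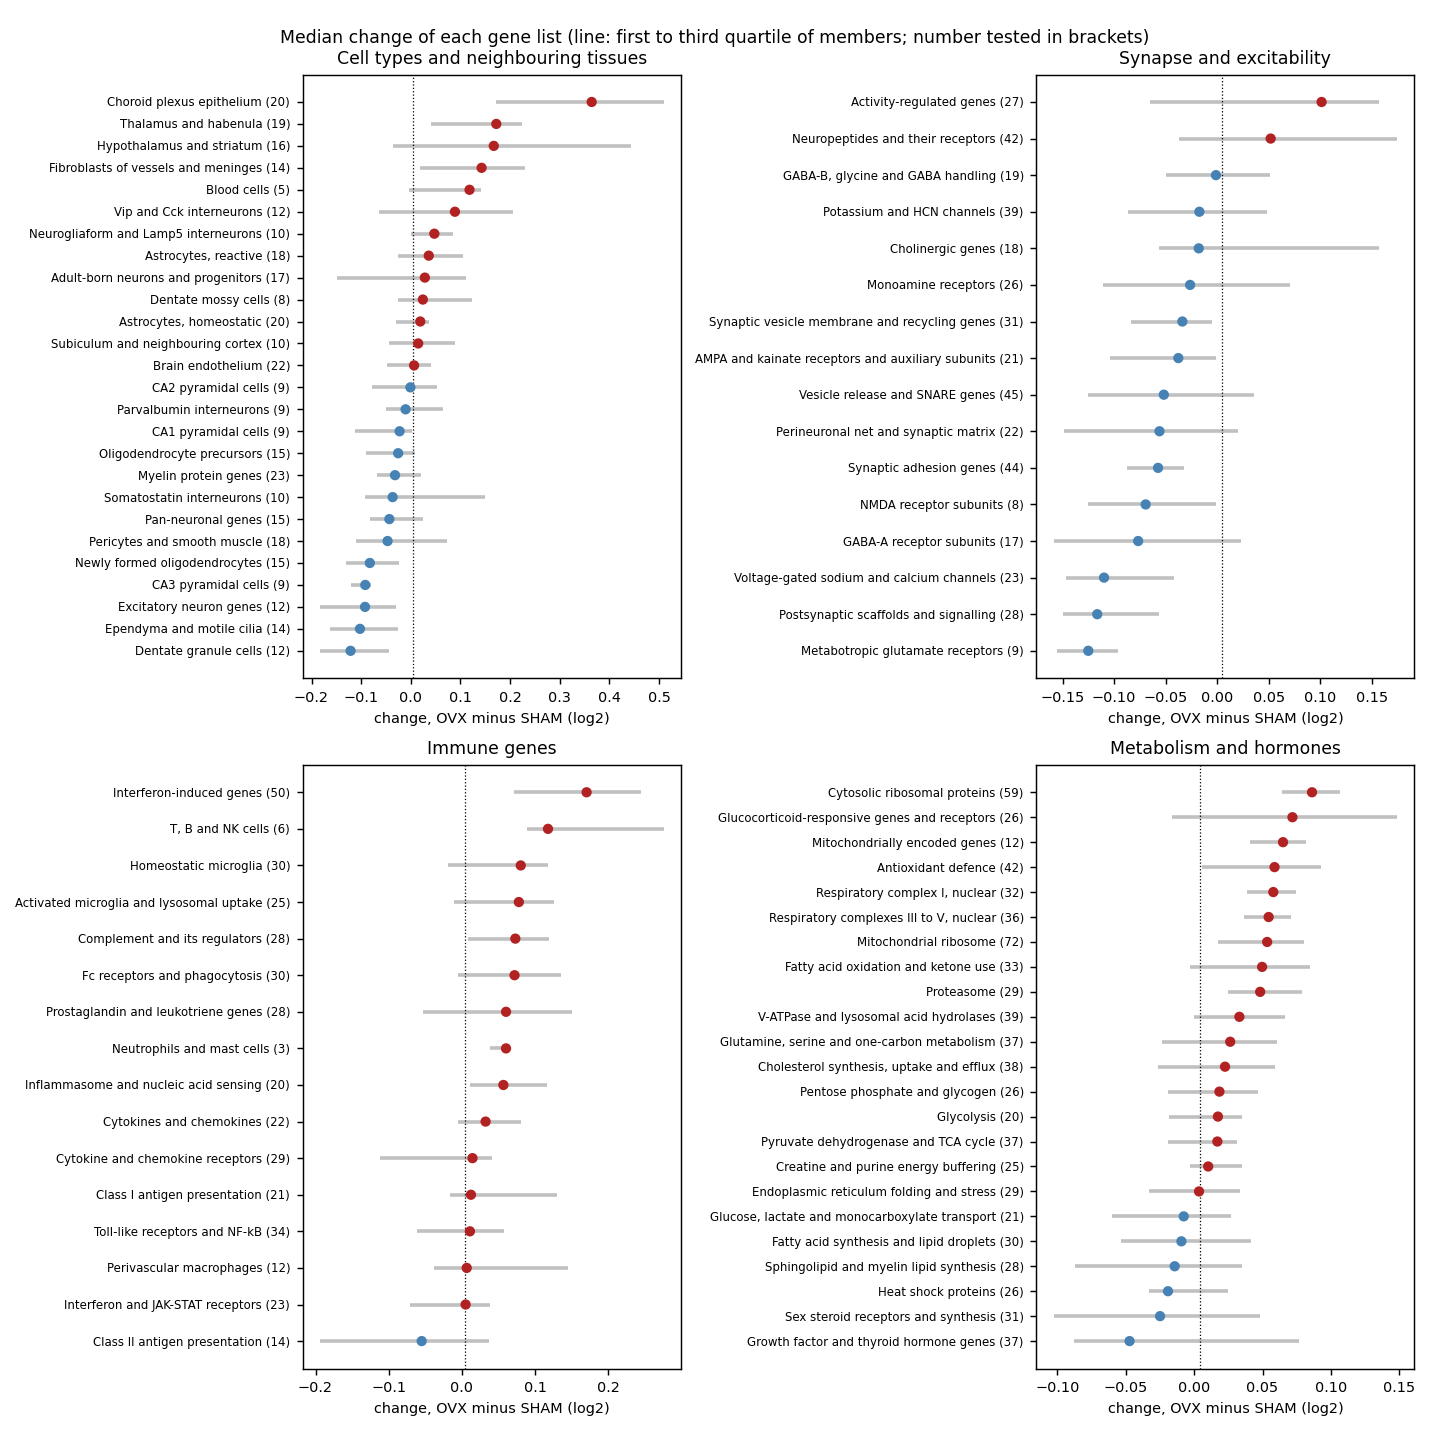
Median change (OVX minus SHAM, log2) of the 81 gene lists, each as a point with a line from the first to the third quartile of its members and the number tested in brackets. The dotted line marks the median of all features, 0.0044. Postsynaptic, channel and glutamate receptor lists lie to the left and interferon, ribosomal and respiratory lists to the right.

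Most genes of the synapse lists had lower values in OVX. Postsynaptic scaffold and signalling genes were lower in 24 of 28 (median -0.12), and 6 were lower at an unadjusted p under 0.05, against 3.08% of all features. Leaving out single libraries moved the median between -0.15 and -0.091, and the libraries with Ttr up to 10000 gave -0.063, with 9 of 28 higher. Dlgap2, which ties PSD-95 to the Shank proteins, ran from 986 to 1542 in OVX (median 1325) and from 1206 to 1809 in SHAM (median 1715), a change of -0.35 (SE 0.10, unadjusted p = 0.00339). All 7 OVX libraries lay under the SHAM median, and the lowest SHAM value was that of SHAM 5. Lrrc7, densin, measured 1643 ± 321 in OVX and 1968 ± 220.4 in SHAM. Shank1 was lowest in OVX 3 at 24315, with 29535 or more in the other 13 libraries. Dlg4, which encodes PSD-95, measured 25212 ± 2030.1 in OVX and 27672 ± 2545 in SHAM and lay under the SHAM median in all 7 OVX libraries.

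Gene lists of glutamate receptors pointed the same way with larger spread. In the NMDA receptor list 6 of 8 genes were lower. In the AMPA and kainate list, which also holds auxiliary subunits, 16 of 21 were. In the metabotropic list, which also holds the scaffold gene Homer2, 7 of 9 were (median -0.13). The NMDA median of -0.069 was -0.028 without SHAM 6 and -0.043 without OVX 3. Without OVX 3, 9 of the 21 genes of the AMPA and kainate list were higher against 5 with it, and their median of -0.038 was -0.067 without SHAM 5. The obligatory NMDA subunit gene Grin1 measured 23628 ± 1301 in OVX and 24734 ± 1425 in SHAM, and the subunit gene Grin2b 2269 ± 418 against 2705 ± 438. Grin2a, a subunit of mature synapses, ranged from 1625 in OVX 3 to 4812 in OVX. Its SHAM range was 3013 to 5448. Gria1, an AMPA receptor subunit gene, lay under the SHAM median in all OVX libraries, between 10131 and 14976 in OVX (median 14290.1) and between 10810.3 and 18625 in SHAM (median 16001) (change -0.19, SE 0.11). Shisa6, an auxiliary subunit gene that keeps AMPA receptors in place, ran from 781 to 1402 in OVX (median 1095) and from 1051 to 1748 in SHAM (median 1384) (change -0.28, SE 0.13). The group I metabotropic receptor gene Grm5 differed by -0.26 (SE 0.12), which did not pass. OVX 3 had the lowest score of the metabotropic list, -0.34 from the mean, and of the NMDA list, -0.28.

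Voltage-gated sodium and calcium channel genes were lower in 21 of 23 (median -0.11), 6 of them at an unadjusted p under 0.05, against 3.08% of all features. The median stayed between -0.13 and -0.091 when single libraries were left out and was -0.11 in the libraries with little Ttr. In the latter 6 of 23 genes were higher, as with quantile normalisation, against 2 of 23 in the main fit. Scn8a, the Nav1.6 channel gene of the axon initial segment, ran from 8301 to 11307 in OVX (median 10187) and from 9903 to 12857 in SHAM (median 11929), a change of -0.25 (SE 0.074, unadjusted p = 0.0045), with every OVX library under the SHAM median. Cacna1a, the P/Q-type calcium channel gene of release sites, measured 9278 ± 832 in OVX and 10175 ± 550.0 in SHAM, and Cacna1c, the L-type channel gene that links activity to transcription, 2469 ± 235 against 2766 ± 158. Potassium and HCN channels leaned less, 26 of 39 lower, and their median of -0.017 was 0.0038 without OVX 3, 0.0018 without SHAM 2 and 0.0017 without OVX 6. Kcnq3, a gene of the M-current that damps repetitive firing, lay under the SHAM median in all 7 OVX libraries. It ran from 1020.3 to 1910.4 in OVX (median 1689.9) and from 1611 to 2392 in SHAM (median 2083) (change -0.40, SE 0.13, unadjusted p = 0.00858). The axonal Kv1.1 gene Kcna1 differed by -0.20 (SE 0.079), which did not pass.

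Adhesion genes that hold synapses together were lower in 37 of 44 (median -0.057, -0.087 without OVX 4 and -0.035 without OVX 2). Clstn2, a calsyntenin gene, ran from 2519.9 to 4216 in OVX (median 3481) and from 3548 to 5221 in SHAM (median 4149), a change of -0.34 (SE 0.10, unadjusted p = 0.00493). The latrophilin gene Adgrl1 measured 15981 ± 947 in OVX and 17393 ± 1239 in SHAM. In the matrix around synapses 15 of 22 genes were lower (median -0.056, -0.025 without OVX 3, -0.033 without SHAM 7 and -0.093 without OVX 7). Acan, aggrecan, the core proteoglycan of perineuronal nets around fast-spiking interneurons, ran from 254 to 339 in OVX (median 302) and from 312 to 420.2 in SHAM (median 378), a change of -0.27 (SE 0.085, unadjusted p = 0.00624), and all OVX libraries lay under the SHAM median.

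On the presynaptic side genes of both signs were found. Vesicle release genes were lower in 31 of 45, with 6 lower and 2 higher at an unadjusted p under 0.05, against 3.08% and 2.2% of all features. Vesicle membrane genes were lower in 25 of 31 (median -0.034, -0.012 without SHAM 2, -0.057 without OVX 4 and -0.060 without SHAM 7). Bsn, bassoon of the active zone, ran from 16965 to 21924 in OVX (median 19865) and from 18907 to 25927 in SHAM (median 23190.0) (change -0.21, SE 0.075). Itsn1 and Amph, scaffolds of vesicle retrieval, differed by -0.12 (SE 0.043) and -0.23 (SE 0.091), both with all OVX libraries under the SHAM median. Rab3b, a vesicle GTPase gene prominent in interneurons, was higher in OVX, between 653 and 941 in OVX (median 779) and between 505 and 835 in SHAM (median 615). All 7 OVX libraries exceeded its SHAM median (change 0.34, SE 0.12, unadjusted p = 0.00986). The abundant vesicle protein genes Vamp2 and Syp differed by less than the spread, 31001 ± 1381 against 30123 ± 1800.4 and 26767 ± 2119 against 27761 ± 1104 (OVX against SHAM).

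Inhibitory transmission showed 11 of 17 GABA-A subunit genes lower (median -0.077, -0.034 without OVX 3, -0.034 without OVX 2 and -0.050 without SHAM 2). The common subunit gene Gabrb2 differed by -0.27 (SE 0.14), and the low-expressed subunit gene Gabrr2 by -0.44 (SE 0.18). Gabbr2, the GABA-B receptor subunit that couples to GIRK channels, ran from 9262 to 11055 in OVX (median 9753) and from 9834 to 11931 in SHAM (median 11058), with all OVX libraries under the SHAM median as for Kcnj6 (change -0.13, SE 0.049). Slc12a5, the KCC2 transporter gene that keeps chloride low so that GABA inhibits, ran from 11836 to 14649.6 in OVX (median 14301) and from 14109 to 15894 in SHAM (median 15450.3) (change -0.13, SE 0.048), with OVX 3 far below the rest. Cholinergic genes had no shared sign, but Lypd1, a membrane-anchored modulator gene of nicotinic receptors, ran from 1133 to 1881 in OVX (median 1419) and from 659 to 1362 in SHAM (median 1115), a change of 0.41 (SE 0.14, unadjusted p = 0.0102). Its change was 0.17 in the libraries with Ttr up to 10000.

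Activity-regulated genes were higher in 18 of 27, and in 13 of 27 in the libraries with little Ttr. Their median of 0.10 was 0.049 without OVX 2, 0.052 without OVX 4, 0.060 without SHAM 7 and 0.065 without SHAM 5. Fos, an immediate early gene, ranged widely, from 314 to 890.2 in OVX (median 504) and from 233 to 580.4 in SHAM (median 399.9) (change 0.38, SE 0.23), Arc measured 3424 ± 844 in OVX and 3135 ± 591 in SHAM and Egr1 3378 ± 687 against 2996 ± 416. The slower genes Inhba, encoding an activin subunit, and Nptx2, a pentraxin gene that clusters AMPA receptors, had negative changes of -0.24 (SE 0.097) and -0.24 (SE 0.10). Neuropeptide genes were higher in 30 of 42, and 21 of 42 in the libraries with little Ttr, and their median of 0.052 was 0.017 without SHAM 7 and 0.078 without SHAM 5.

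Among immune genes, most interferon-induced, microglial and complement genes were higher in OVX, whereas antigen presentation, receptor and Toll-like lists lay near the background or below it. Interferon-induced genes had a positive change in 46 of 50 (median 0.17), of which 5 were higher at an unadjusted p under 0.05, against 2.2% of all features. Many such genes carry the interferon-stimulated response element, to which IRF and STAT complexes bind. The motif GAAANNGAAA was searched on both strands in the 250 bases before each gene's start, in the promoters of RefSeq for GRCr8. It was found in 26 of the 38 interferon genes with a promoter entry (68.4%), against 3.41% of all 33469 promoters. The list was made of genes known to be induced by interferon, so this share describes the list and not the comparison of OVX with SHAM. Genes with the motif had a median change of 0.18 (23 of 26 higher) and those without it 0.078 (11 of 12 higher). The promoters of Irf7 (chr1:205800063-205800112, minus strand), Oas1a (chr12:41330405-41330454, plus strand) and Rsad2 (chr6:48788238-48788287, minus strand) are shown because these genes represent the regulator and the antiviral effectors of the list. Each stretch reads along its gene's own strand, with the motif, or its reverse complement, in capitals, and the capitals in Oas1a span 2 overlapping matches.
Irf7: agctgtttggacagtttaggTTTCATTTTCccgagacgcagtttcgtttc
Oas1a: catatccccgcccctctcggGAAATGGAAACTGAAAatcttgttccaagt
Rsad2: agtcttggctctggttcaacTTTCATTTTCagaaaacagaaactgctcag

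Oas1a, an antiviral oligoadenylate synthetase gene, ran from 45.9 to 91.5 in OVX (median 63.5) and from 25.5 to 68.7 in SHAM (median 39.7), a change of 0.68 (SE 0.23, unadjusted p = 0.0104). All 7 OVX libraries exceeded the SHAM median, but the groups overlapped. Rsad2, viperin, ran from 57.1 to 139 in OVX (median 128) and from 50.1 to 118 in SHAM (median 69.5) (change 0.52, SE 0.23). Irf7, the transcription factor that amplifies the response, and Mx1, an antiviral GTPase gene, differed by 0.55 (SE 0.23) and 0.63 (SE 0.20). The receptor gene Ifnar1 measured 2889.5 ± 91.2 in OVX and 2789.7 ± 53.6 in SHAM, so it lay closer to SHAM than these induced genes. Interferon and JAK-STAT receptor genes were higher in 12 of 23. The interferon score varied within both groups. It was highest in OVX 7 (0.38 above the mean of the 14 libraries), OVX 4 (0.26) and SHAM 1 (0.23), and lowest in SHAM 5 (-0.31) and OVX 1 (-0.23). With log2(Ttr + 1) as a covariate the median of these genes was 0.15 (41 of 50 higher), and in the libraries with Ttr up to 10000 it was 0.094 (45 of 49 higher). Leaving out single libraries gave 0.13 to 0.21.

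Microglial genes were higher in 22 of 30 homeostatic (median 0.080) and 18 of 25 activation markers (median 0.078). Gpr34, a lysophosphatidylserine receptor gene of resting microglia, ran from 496 to 650.0 in OVX (median 580.4) and from 355 to 605 in SHAM (median 461), a change of 0.32 (SE 0.12, unadjusted p = 0.0162), and all OVX libraries exceeded the SHAM median. The purinergic receptor gene P2ry12, the standard marker of resting microglia, measured 446 ± 68.8 in OVX and 412 ± 62.2 in SHAM, a difference within the spread. Grn, progranulin, measured 2303 ± 69.1 in OVX and 2106 ± 189 in SHAM. Cd68, a lysosomal membrane protein gene of phagocytes, ran from 60.0 to 79.9 in OVX (median 71.0) and from 45.2 to 78.8 in SHAM (median 59.4) (change 0.28, SE 0.13), and the lipid-sensing receptor gene Trem2 differed by 0.21 (SE 0.10). Apoe, made by astrocytes and activated microglia, measured 135591 ± 11569 in OVX and 128334 ± 6590.3 in SHAM.

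Complement genes were higher in 21 of 28 (median 0.073, 0.030 without OVX 6). C4a measured 2036 ± 312 in OVX and 1550.5 ± 429 in SHAM, with SHAM 1 as the highest SHAM library at 2432, and C4b differed by 0.51 (SE 0.21). These are near-identical copies, so how reads were shared between them is uncertain. The initiating component C1qa measured 2437 ± 258 in OVX and 2248 ± 237 in SHAM and the central component C3 1815 ± 388 against 1708 ± 355, both within the spread of the groups. Of class I antigen presentation genes 11 of 21 were higher and of class II genes 5 of 14, counts that ran from 9 to 14 and from 3 to 9 without single libraries. Within class I, the invariant chain B2m differed by 0.13 (SE 0.062), the peptide transporter gene Tap1 by 0.17 (SE 0.084) and Psme1, an interferon-inducible proteasome activator subunit gene, by 0.14 (SE 0.054).

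Among sensors, Tlr7, the endosomal receptor for single-stranded RNA, ran from 184 to 238 in OVX (median 226) and from 142 to 216 in SHAM (median 165), a change of 0.35 (SE 0.098, unadjusted p = 0.00277). All 7 OVX libraries exceeded the SHAM median. Its adaptor gene Myd88 measured 259 ± 27.6 in OVX and 229 ± 30.7 in SHAM, whereas Ikbkg, the NEMO subunit needed for NF-kB activation, ran lower, between 145 and 245 in OVX (median 215) and between 229 and 286 in SHAM (median 250.4) (change -0.25, SE 0.10). Toll-like receptor and NF-kB genes as a list were split evenly, 17 of 34 higher. Inflammasome and nucleic acid sensing genes were higher in 15 of 20 (median 0.057, 0.036 without SHAM 5), with Nlrc4, a sensor gene, at 56.7 ± 9.30 in OVX and 43.7 ± 11.2 in SHAM and Casp4, the caspase gene of the noncanonical pathway, at 103 ± 10.6 against 86.6 ± 16.0. Among phagocyte receptors Cd300a, an inhibitory receptor gene for phospholipids, ran from 61.8 to 116 in OVX (median 91.1) and from 46.3 to 101 in SHAM (median 54.0) (change 0.44, SE 0.20), and Fcer1g, the shared Fc receptor chain, differed by 0.24 (SE 0.087). Cntf, a cytokine gene of astrocytes, measured 161 ± 16.0 in OVX and 133 ± 24.8 in SHAM (change 0.29, SE 0.11).

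Few lymphocyte or neutrophil genes were detected. Of 20 T, B and NK cell genes present, 6 reached a mean of 10, and all 6 had positive changes (median 0.12). Their summed level ran from 632 to 765 in OVX and from 496 to 851 in SHAM. Lck, the T cell kinase gene, which some neurons also express, measured 65.2 ± 11.5 in OVX and 53.0 ± 13.4 in SHAM. The cytotoxic cell gene Nkg7 did not exceed 3.11 in any library, under the tested minimum. The neutrophil gene S100a8 did not exceed 3.48.

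Energy and protein metabolism held many small positive changes. Cytosolic ribosomal protein genes were higher in 57 of 59 (median 0.086, 10 higher at an unadjusted p under 0.05 against 2.2% of all features), mitochondrial ribosome genes in 61 of 72 (median 0.053) and proteasome genes in 29 of 29 (median 0.048). Nuclear genes of respiratory complex I were higher in 30 of 32 (median 0.058) and those of complexes III to V in 35 of 36 (median 0.054). The proteasome and respiratory lists rested largely on OVX 3, whose score exceeded the mean of the 14 libraries by 0.22 for the proteasome, 0.25 for complex I and 0.28 for complexes III to V. OVX 6 and OVX 7 lay below the mean in all 3. Without OVX 3 the counts were 20 of 29 for the proteasome (median 0.015), 24 of 32 for complex I (median 0.023) and 22 of 36 for complexes III to V (median 0.016). The mitochondrial ribosome had 43 of 72 higher (median 0.012) and cytosolic ribosomal proteins 53 of 59 (median 0.052). A further setting, chosen after seeing the data, left out OVX 2, OVX 3, SHAM 5 and SHAM 7. There cytosolic ribosomal proteins had 46 of 59 higher (median 0.028) and the mitochondrial ribosome 38 of 72 (median 0.0061). Complex I had 20 of 32 (median 0.011) and complexes III to V 20 of 36 (median 0.0057). The score of the cytosolic ribosomal proteins was highest in OVX 1 (0.13), OVX 3 (0.12) and OVX 2 (0.11). In the 7 libraries with Ttr up to 10000, where OVX 3 is 1 of 3 OVX libraries, the medians were larger, 0.12 for the proteasome and 0.17 for cytosolic ribosomal proteins. OVX 3 is low in Ttr and Prkcd, and what sets it apart was not tested.

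**Figure D4:**
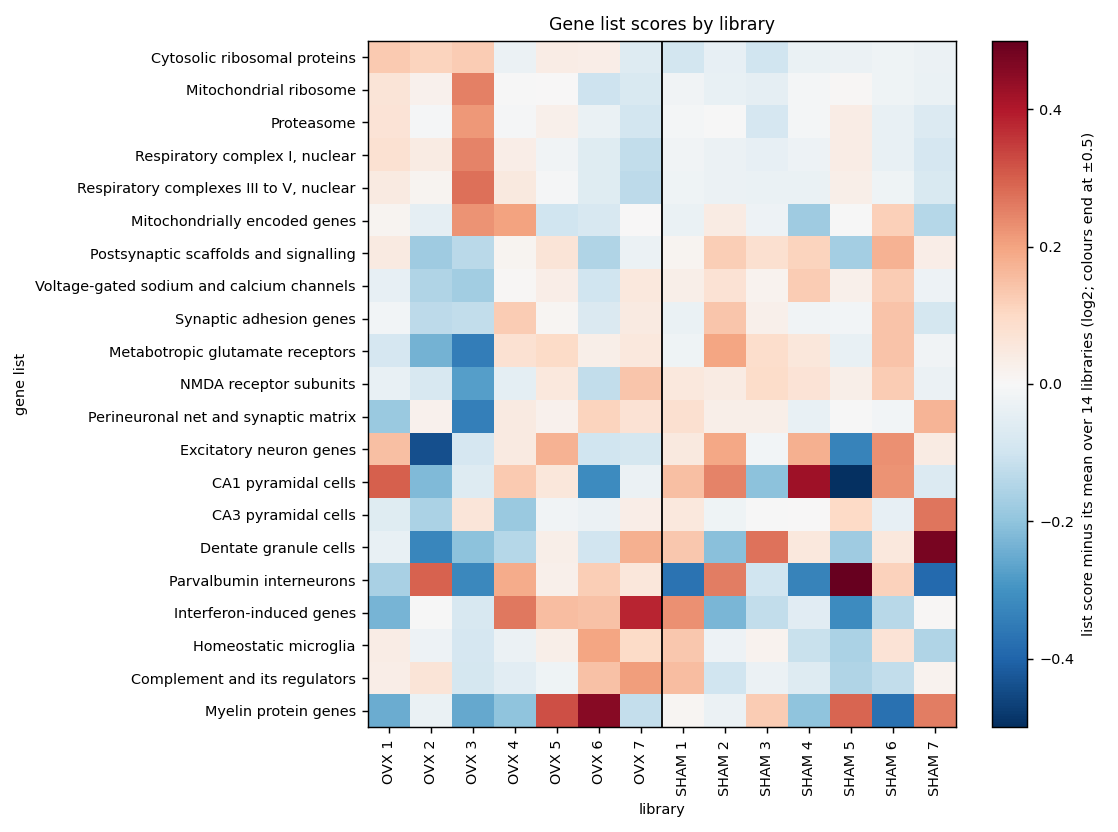
Score of 21 gene lists in each library, as the mean log2 level of the list minus its mean over the 14 libraries (colours end at ±0.5), OVX left of the line and SHAM right. OVX 3 is highest in the respiratory, mitochondrial ribosome and proteasome rows, and OVX 2 and SHAM 5 are lowest in the excitatory neuron row.

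Rpl28, a large-subunit ribosomal protein gene, ran from 2813 to 5034 in OVX (median 4101) and from 2718 to 3879.6 in SHAM (median 2858), a change of 0.38 (SE 0.12, unadjusted p = 0.00529). SHAM 1 was the one SHAM library above 2891. Rpl10 differed by 0.13 (SE 0.046). Such genes have many processed pseudogenes, and how reads were shared with them is uncertain. Cox7a2l, which links respiratory complexes into supercomplexes, ran from 4763 to 5873 in OVX (median 5089.7) and from 4359.6 to 4989 in SHAM (median 4664), and all 7 OVX libraries exceeded the SHAM median (change 0.14, SE 0.047, unadjusted p = 0.00841). Its change was 0.11 without OVX 3. Uqcrfs1, the Rieske protein of complex III, measured 3437 ± 203 in OVX and 3201 ± 235 in SHAM, and the complex I genes Ndufc2 and Ndufb5 measured 2169 ± 144 against 2031 ± 86.3 and 2137 ± 198 against 1981 ± 99.3. Mitochondrially encoded genes were higher in 10 of 12 (median 0.065), with Mt-nd3 at 37408 ± 4195 in OVX and 32947 ± 2460.0 in SHAM. That median was 0.026 without OVX 3, 0.038 without SHAM 4, 0.042 without OVX 4 and 0.012 with quantile normalisation (7 of 12 higher). In the mitochondrial ribosome Mrpl47 differed by 0.18 (SE 0.066) and Mrpl30 by 0.18 (SE 0.080). The proteasome subunit genes Psma1 and Psmb3 measured 2151 ± 157 against 2019 ± 104 and 2204 ± 162 against 2065 ± 78.0, with OVX 3 highest in both.

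Genes of fuel use were also measured. Glycolysis genes were higher in 12 of 20, with the neuronal hexokinase gene Hk1 lower at 13146 ± 746 in OVX and 13971 ± 683 in SHAM, and pyruvate dehydrogenase and citric acid cycle genes in 24 of 37. Without single libraries these counts ran from 8 to 16 and from 19 to 26. Fatty acid oxidation genes were higher in 22 of 33 (median 0.050), including the long-chain dehydrogenase gene Acadl at 1006 ± 41.7 in OVX and 926 ± 58.4 in SHAM and Hadhb of the trifunctional protein at 3532 ± 109.6 against 3339.7 ± 187. Both lay above the SHAM median in all 7 OVX libraries. Ppargc1b, a coactivator gene of mitochondrial biogenesis, was lower, between 215 and 308 in OVX (median 266) and between 264 and 318 in SHAM (median 307) (change -0.20, SE 0.081). In storage pathways Stbd1, a glycogen-binding protein gene, ran from 85.3 to 149.9 in OVX (median 105) and from 63.1 to 100.1 in SHAM (median 89.8) (change 0.39, SE 0.14), and Rpia of the pentose phosphate pathway measured 359.5 ± 22.2 in OVX and 321 ± 32.4 in SHAM. Antioxidant genes were higher in 32 of 42 (median 0.059, 0.033 without OVX 2 and 0.035 without OVX 3), with their regulator gene Nfe2l2 at 996 ± 31.4 in OVX and 925 ± 76.1 in SHAM.

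Cholesterol and fatty acid synthesis genes stayed near the 51.8% of all features. Cholesterol genes were higher in 23 of 38, led by Tm7sf2 and by Npc2, which hands cholesterol out of lysosomes. Npc2 ran from 3037 to 3798 in OVX (median 3419) and from 2886 to 3394 in SHAM (median 2984), a change of 0.17 (SE 0.054, unadjusted p = 0.00535), and all 7 OVX libraries exceeded the SHAM median. Lysosomal genes were higher in 29 of 39. The ceramide synthase gene Cers6 lay under the SHAM median in all OVX libraries, at 712 ± 77.1 in OVX and 806 ± 89.0 in SHAM. Fatty acid synthesis genes were lower in 18 of 30, but 17 of 30 were higher without OVX 3, and the median of -0.0093 turned to 0.0099 without it, 0.0072 without SHAM 7 and 0.0034 without SHAM 3. Acaca, the rate-limiting carboxylase gene, was at 3323 ± 351 in OVX and 3589 ± 133 in SHAM and the triglyceride-forming gene Dgat1 higher at 1257 ± 82.1 against 1165 ± 48.1.

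**Figure D5:**
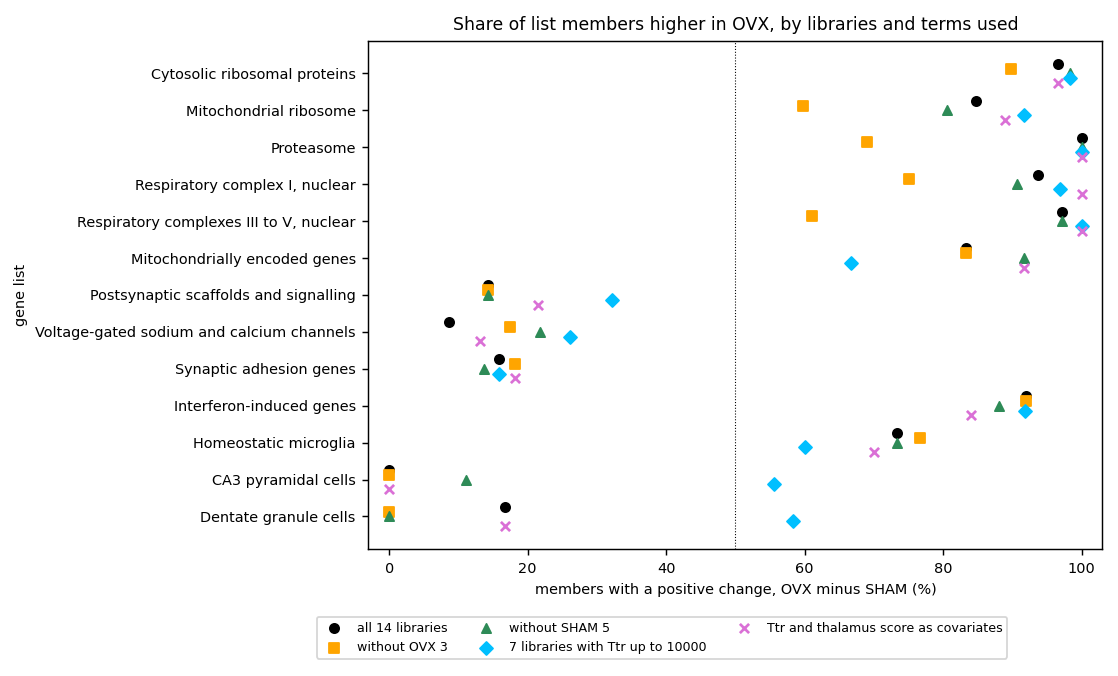
Percentage of the tested members of 13 gene lists with a positive change, with all 14 libraries, without OVX 3, without SHAM 5, in the 7 libraries with Ttr up to 10000, and with Ttr and the thalamus score as covariates. Respiratory, proteasome and mitochondrial ribosome lists fall back without OVX 3, CA3 and dentate lists cross 50% in the libraries with little Ttr, and scaffold, channel, adhesion and interferon lists stay on their side.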

How the data were processed

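Hippocampal RNA of the 7 OVX and 7 SHAM libraries was analysed from normalised counts that the authors deposited, a signal per feature and library in arbitrary units. The submitters' processing notes name kallisto 0.43 and DESeq2; for build, annotation and filters, nothing is stated in the labels or the header. Per the labels' protocols, RNA was extracted with TRIzol and column purified with DNase. Read counts are not given, so no counting intervals were computed. Whole reads could not be recovered, and reads were estimated by dividing each column total by that library's commonest small value.

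Values were analysed as log2(value + 1) in R 4.3.3 with limma 3.58.1 (empirical Bayes with a mean-variance trend, Benjamini-Hochberg, threshold 0.05), on features with a mean of at least 10 over the 14 libraries. Of 20318 features 2378 had no symbol (943 of those tested). The estradiol groups stayed out because an earlier reading of these data found the group labelled Treatment to be split over different kinds of libraries. A fit with all 24 samples was an alternative. The procedure was tested on simulated data.

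The 81 gene lists held 2009 names, of which 1873 matched a symbol in the table and 1795 were tested. The groups, the members and the lists were chosen with earlier results of these data known. The text names the 12 smallest p in each direction and genes whose groups do not overlap. Per list, it names from 3 anchor genes and the 2 others with the smallest p, picked by known role. Apart from the anchors, all of these were taken from features with a symbol and a mean of at least 50. Nkg7 and S100a8 are anchors under the minimum. Some genes that this rule names are not reported here. Ttr was tested by an exact two-sided permutation test. Replicate numbers did not pair the libraries: the correlation of same-numbered deviations exceeded 0.1 in 1 of 7 pairs (-0.33 to 0.26). Promoter sequences are from RefSeq, GRCr8. Figures were drawn with matplotlib 3.10.9 in Python 3.11.15. Alternatives were other pseudocounts (0.5, 8), filters (none, 100) and scalings, weights, covariates, the block and left-out libraries. Leaving out OVX 2 with SHAM 5, or these with OVX 3 and SHAM 7, was chosen after seeing the data.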

Additional observations from a re-analysis of the deposited data

Results flagged for a closer look

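Within a group of 7 libraries, 1 library was set apart from the others by a wide gap (Dixon's criterion at 95%) in the cases below. Chance alone sets apart about 1 in 20 groups. Here 31 cases arose in 322 groups examined, 2 for each of 161 genes.

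Genes of neighbouring tissues made up 11 cases. In SHAM 7 the choroid plexus genes stood high, Ttr at 136652 (others up to 23186), Folr1 at 1449 and Kl at 5474. In SHAM 5 the thalamic genes did, Tcf7l2 at 3357, Prkcd at 4671 and Lef1 at 987. In OVX 2 thalamic and hypothalamic genes did, Tcf7l2 at 1579, Prkcd at 3914, Hcrt at 711, Pmch at 5944 and Oxt at 4955.

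SHAM 5 was also lowest of its group in Rbfox3 (4721), Dlgap2 (1206) and Adgrl1 (14694), and highest in Uqcrfs1 (3669). SHAM 7 was highest in Cpne4 (9065), Grik4 (4089) and Nfasc (17515). SHAM 1 was highest in Des (208), C4a (2432), Fcer1g (533) and Rpl28 (3880). OVX 3 was lowest in Shank1 (24315), Slc12a5 (11836) and Ikbkg (145) and highest in Uqcrfs1 (3862), Mrpl30 (987), Psma1 (2478) and Psmb3 (2543). C4a was highest in OVX 7 (2699) and Nlrc4 in OVX 5 (75.6). Values are normalised counts.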

How the results depend on the processing

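The number of features called stayed at 0 under all 30 alternatives, with 259 to 527 features higher and 308 to 733 lower at an unadjusted p under 0.05. The most lower features (733) came without SHAM 5. With the replicate number as a block, which did not pair the libraries, limma again called 0 features (283 higher and 377 lower at an unadjusted p under 0.05). Of the 7 OVX libraries, 1 correlated best with the SHAM library of its own number. Upper quartile rescaling gave 430 higher and 435 lower, against 354 and 495. Of 161 genes followed, 136 kept their sign in every alternative, and the 25 others were far from the threshold throughout. Many of the genes followed were picked by p in the same libraries, which favours a stable sign. The cause of each reversal was not tested.

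In the 7 libraries with Ttr up to 10000 (3 OVX and 4 SHAM) the sign turned for Tcf7l2 (-0.84), Prkcd (-0.88), Lef1 (-0.50), Fkbp5 (0.18), Bdnf (0.046), Rbfox3 (0.098), Slc17a7 (0.14), Prox1 (0.12), Rgs14 (0.048), Cpne4 (0.082), Grik4 (0.16), Dcx (-0.036), Aqp4 (-0.037), Syp (0.016), Fos (-0.057), Arc (-0.18) and P2ry12 (-0.0068). Without OVX 2 and SHAM 5 it turned for Folr1 (-0.16), Kl (-0.34), Hcrt (-0.10), Pvalb (0.062) and Arc (-0.0047), and without OVX 3 and SHAM 7 as well for Nr3c1 (0.037), Mbp (0.061), Vamp2 (-0.0061) and Arc (-0.013). With log2(Ttr + 1) as a covariate Kl was -0.14 and Pvalb 0.030, with the thalamus score Tcf7l2 was -0.048 and Prkcd -0.0060, and with both Kl was -0.15, Tcf7l2 -0.023, Prkcd -0.032 and Pvalb 0.0097. Quantile normalisation turned Slc17a7 (0.019) and Mbp (0.0033), and sample weights Pvalb (0.0039). Leaving out single libraries gave -0.14 to 0.63 for Tcf7l2, -0.13 to 0.57 for Prkcd, -0.021 to 0.40 for Lef1, -0.024 to 0.72 for Hcrt, -0.087 to 0.011 for Nr3c1, -0.084 to 0.085 for Pvalb, -0.00022 to 0.083 for Gfap and -0.15 to 0.0017 for Mbp. Differences of the size seen here, mostly under 0.4 on the log2 scale, are close to the spread between libraries, and read depth is known only as an estimate.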

Other observations

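Counts for the remaining lists are read against the 51.8% of all features with a positive change. Pan-neuronal genes were higher in 6 of 15, dentate mossy cell genes in 4 of 8 and genes of the subiculum and neighbouring cortex in 6 of 10. Genes of oligodendrocyte precursors were higher in 6 of 15, a count that was 12 without OVX 3. Genes of ependyma and motile cilia were lower in 11 of 14 (median -0.10), and their median was 0.0066 without SHAM 7 and -0.25 without OVX 6. Perivascular macrophage genes were higher in 7 of 12, cytokine and chemokine genes in 14 of 22, their receptors in 16 of 29 and prostaglandin and leukotriene genes in 16 of 28. Fc receptor and phagocytosis genes were higher in 20 of 30 (median 0.072, 0.040 without OVX 5, 0.041 without SHAM 5 and 0.048 without OVX 6).

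Genes of monoamine receptors were higher in 10 of 26, and those of GABA-B, glycine and GABA handling in 9 of 19. In metabolism, glucose and lactate transport genes were higher in 10 of 21, glutamine, serine and one-carbon genes in 23 of 37, creatine and purine genes in 17 of 25 and sphingolipid genes in 13 of 28. Folding and stress genes of the endoplasmic reticulum were higher in 15 of 29 and heat shock genes in 10 of 26. A palindromic estrogen response element (GGTCANNNTGACC, either strand, 250 bases before the start) was in 8 of 33469 promoters (0.0239%) and in 0 of the 21 with an entry among the 26 genes with the smallest p or without overlap. With so rare a motif, 0 would be found in almost any 21 promoters, so nothing can be concluded from it.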
